A study of Mus musculus with 8 samples.

Results

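The miR-143 and miR-145a pair was examined among small RNAs bound to the RNA-induced silencing complex (RISC) in mouse brain. The members were the 4 mature arms mmu-miR-143-3p, mmu-miR-143-5p, mmu-miR-145a-5p and mmu-miR-145a-3p, chosen by name, and together they hold 227 of the 47204 distinct read sequences in the table and 4 of its 895 miRNA names. The 8 libraries come from cortex and hippocampus of 4 mice labelled 5XFADtg/Rubicon het and 4 labelled 5XFADtg/Rubicon ko, which differ in carrying 1 or no working copy of Rubicon, a protein needed for LC3-associated endocytosis. All 8 mice, the het controls included, carry the 5XFAD transgene, which is expressed in neurons and gives amyloid disease, so no mouse without the transgene is in the comparison. The study describes female mice on a mixed C57BL/6J and SJL background and states their age, which the labels do not give. Argonaute complexes were captured with a GW182 peptide, so a value here is the level of a guide RNA loaded into RISC and not of the whole tissue RNA, and the knocked-out gene itself cannot be checked in small RNA reads.

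miR-143 and miR-145 are made from neighbouring hairpins of a shared primary transcript, and are known as the leading microRNAs of vascular smooth muscle. Serum response factor and its coactivator myocardin drive the transcript, and the mature miRNAs repress growth regulators such as Klf4 and Elk1, which favours the contractile state. In brain they are used as markers of the walls of arteries and of mural cells. Each hairpin gives a 5p and a 3p arm, and the arm that Argonaute keeps is the guide, while the other, the passenger, is mostly degraded. A guide recognises targets chiefly by its seed, the bases just after its 5′ end, so a shift of the start by a single base changes the seed.

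In GRCm38 both hairpins lie on the minus strand of chromosome 18, Mir143 at chr18:61649196-61649258 (63 bases) and Mir145a at chr18:61647825-61647894 (70 bases), 1301 bases apart. In RefSeq the long noncoding RNA gene Carmn, chr18:61645878-61665538, spans both, whereas the GENCODE model of Carmn, chr18:61649625-61665537, starts upstream and ends before Mir143. Only the first of these annotations places the hairpins inside the host gene.

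The table holds 509839 to 19878054 reads per library, which make up 98.4% to 99.8% of the total its CPM are scaled to, and both libraries above 5000000 reads, ko replicates 1 and 2, are ko. Values are reads of an arm per 1000000 reads of the library (CPM), with a 95% Wilson interval for single libraries that covers counting error only. A level of 3 reads is worth 5.79 CPM in het replicate 1, the shallowest library, and 0.151 CPM in ko replicate 2, the deepest. Of the markers of other cells, neuronal miR-124-3p stood at 52509 ± 14832 CPM and endothelial miR-126a-3p at 5618 ± 2309 CPM (mean ± SD, n = 8), and all 3 neuronal markers were among the abundant guides, at least 34019 CPM in every library.

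The major arms of the pair were loaded at similar levels, and the other arms were scarce. miR-143-3p, the guide of the miR-143 hairpin, measured 3069.6, 3314, 3360 and 2352 CPM in het replicates 1 to 4 and 2209, 3205, 2168 and 1816 CPM in ko replicates 1 to 4. miR-145a-5p, the guide of the other hairpin, measured 1942, 2666, 2598 and 2332 CPM in het and 2572, 1736, 3618 and 1547 CPM in ko, in the same order. The values of both arms overlap between the genotypes, and miR-143-3p was highest in het replicate 3, while miR-145a-5p was highest in ko replicate 3. By mean level miR-143-3p ranked 57th and miR-145a-5p ranked 63rd of 895 miRNAs. All 4 arms together took 0.534 ± 0.0905% of the miRNA reads (SD, n = 8), from 0.359% in ko replicate 4 to 0.633% in het replicate 2.

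The passenger arms were far scarcer. miR-143-5p measured 21.2, 27.5, 30.3 and 18.8 CPM in het replicates 1 to 4, from 11, 40, 78 and 50 reads. In ko it measured 4.83, 17.9, 16.8 and 4.90 CPM, from 38, 356, 39 and 5 reads. Every ko value of miR-143-5p lay below every het value, but the nearest pair, 18.8 CPM in het replicate 4 (14.2 to 24.7) and 17.9 CPM in ko replicate 2 (16.1 to 19.8), overlap in their counting intervals. miR-145a-3p, the passenger of the other hairpin, measured 21.2, 71.5, 48.5 and 28.2 CPM in het and 57.1, 51.3, 31.4 and 36.3 CPM in ko, and here the het mice spanned all of the ko mice. In mean rank miR-145a-3p stood 348th and miR-143-5p 429th.

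**Figure D1:**
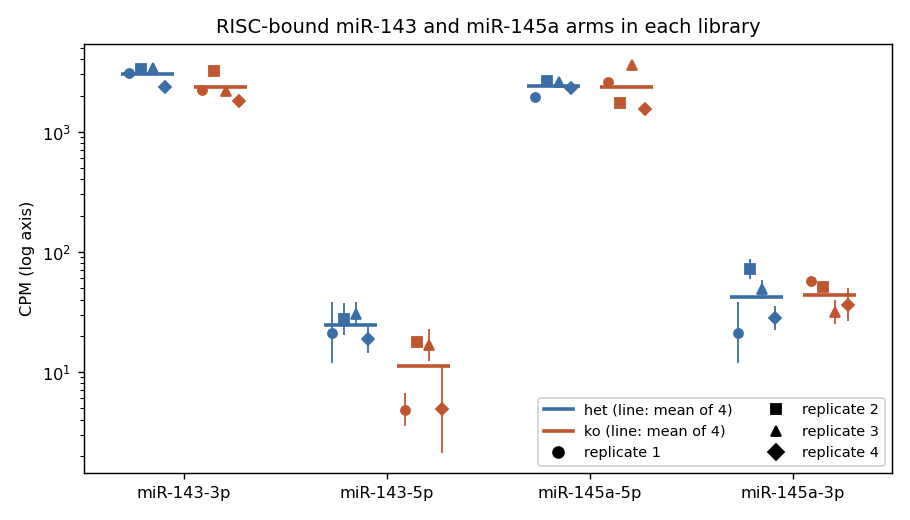
CPM (log axis) of the 4 arms in each of the 8 libraries, with 95% Wilson intervals as bars, blue for het, orange for ko, and a line at the mean of 4 libraries. The 3p arm of miR-143 and the 5p arm of miR-145a lie between 1547 and 3618 CPM, the other arms between 4.83 and 71.5 CPM, and miR-143-5p is the arm in which no ko point reaches a het point.

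The spread of the guides over mice was below that of most miRNAs. The coefficient of variation over the 8 libraries was 22.8% for miR-143-3p and 27.6% for miR-145a-5p, against a median of 34.2% over the 463 miRNAs whose mean reached 10 CPM, and 20.5% and 33.0% of those miRNAs varied less. The passengers varied more, by 39.0% for miR-145a-3p and 52.0% for miR-143-5p, and they also rest on the fewest reads.

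The first comparison asked whether RISC in ko brains held another amount of the pair than RISC in het brains. None of the 4 arms passed the threshold. miR-143-3p averaged 3024 ± 466 CPM in het against 2349 ± 597 CPM in ko (SD, n = 4 each), and the log2 fold change of CPM plus 1, ko minus het, was -0.38 with a limma standard error of 0.26 and a 95% interval from -0.94 to 0.17 (limma, Benjamini-Hochberg adjusted p = 0.796). miR-145a-5p averaged 2384 ± 328 CPM in het against 2368 ± 945 CPM in ko, and the difference on the log2 scale was -0.08 (interval -0.72 to 0.56, SE 0.30, adjusted p = 0.975 by limma). These intervals leave room for a difference of either guide in ko, so equal loading is not shown.

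Among the passengers, miR-143-5p averaged 24.5 ± 5.35 CPM in het and 11.1 ± 7.20 CPM in ko. Its log2 fold change was -1.27 (SE 0.52, interval -2.39 to -0.15), with an unadjusted limma p of 0.0287 and an adjusted p of 0.578, which fails the correction. miR-145a-3p averaged 42.4 ± 22.6 CPM in het and 44.0 ± 12.2 CPM in ko, which is 0.16 higher in ko on the log2 scale (interval -0.74 to 1.07, SE 0.42, adjusted p = 0.975 by limma). The fit called 6 of 463 miRNAs, or 1.30%, and 0 of the 4 members. edgeR and DESeq2 on the recovered reads also called 0 of 4, and at an unadjusted p under 0.05 limma held 1 member and edgeR and DESeq2 held 0. At that unadjusted level 6.91% of all miRNAs were lower in ko, and 3.24% had all 4 ko below all 4 het libraries, against 1 of 4 members for each.

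Scaling mattered for the sign of the smallest change. On CPM the median log2 fold change of all 463 miRNAs was -0.09, and centring each library on its median moved that by 0.22 to 0.13. Relative to the median of all miRNAs, the change was -0.29 for miR-143-3p, -1.18 for miR-143-5p, 0.008 for miR-145a-5p and 0.25 for miR-145a-3p. miR-145a-5p changed sign under centring, edgeR and DESeq2, with log2 fold changes of 0.14, 0.10 and 0.11, and no direction is given for it. The other 3 arms kept their sign under those 3 settings.

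**Figure D2:**
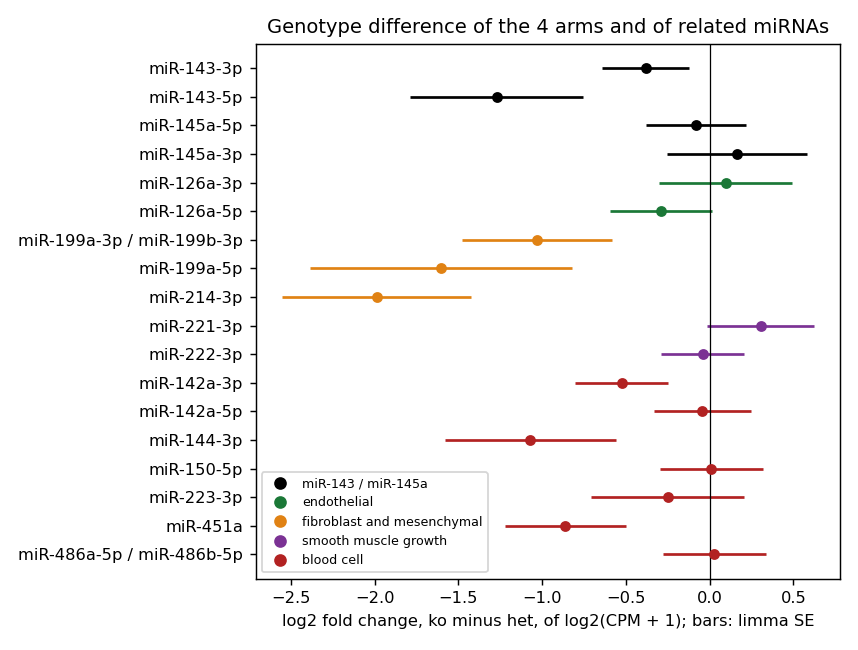
Log2 fold change, ko minus het, of log2(CPM + 1) for the 4 arms (black) and for miRNAs of the endothelial, fibroblast and mesenchymal, smooth muscle growth and blood lists, with limma standard errors as bars. miR-143-5p is at -1.27, the fibroblast and mesenchymal miRNAs miR-199a/b-3p, miR-199a-5p and miR-214-3p at -1.03, -1.60 and -1.99, and blood miR-144-3p at -1.07, while miR-143-3p is at -0.38 and miR-145a-5p at -0.08. No miRNA shown passed the adjusted threshold in this limma fit, and DESeq2 called miR-214-3p.

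The second comparison asked how RISC splits each hairpin into guide and passenger, and how the hairpins compare. A ratio within a library is free of scaling. Each mature arm is about the same length and is read whole, so no division by length was made. Ligation to adapters can favour some ends, and copies made in amplification cannot be told from separate molecules. miR-143-3p exceeded miR-143-5p by 111-fold to 457-fold, with a mean log2 ratio of 7.47 ± 0.78 (SD, n = 8), or 177-fold. It was higher in 8 of 8 libraries (exact sign-flip permutation test, two-sided p = 0.0078, the smallest that these sign flips can give, and 0.0117 adjusted over 3 ratios). miR-145a-5p exceeded miR-145a-3p by 33.8-fold to 115-fold, with a mean log2 ratio of 5.84 ± 0.66, or 57.1-fold, also in 8 of 8 libraries (exact p = 0.0078, adjusted 0.0117). The 3p arm was thus the loaded strand of miR-143 and the 5p arm that of miR-145a.

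The guides of the pair did not differ beyond their spread. miR-143-3p stood at 0.599 to 1.85 times miR-145a-5p, with a mean log2 ratio of 0.19 ± 0.51 and a higher miR-143-3p in 6 of 8 libraries (exact p = 0.32). This rests on which mice are counted. Without ko replicate 3, where miR-145a-5p was highest, the mean log2 ratio was 0.32 with an exact p of 0.0469. Leaving out each library in turn gave exact p from 0.0469 to 0.609. With only the most abundant read of each arm the mean log2 ratio was -0.02.

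The share of the passenger was then read in each library. miR-143-5p made up 0.687%, 0.823%, 0.893% and 0.792% of the reads of its hairpin arms in het replicates 1 to 4. In ko it made up 0.218% (Wilson 0.159 to 0.300), 0.555%, 0.767% and 0.269%. The het mice were close to each other, while ko replicates 1 and 4 lay lowest, the latter on 5 reads. The log2 ratio of the arms averaged 6.96 ± 0.16 in het and 7.97 ± 0.86 in ko, a difference of 1.01 (exact permutation test over 70 arrangements, two-sided p = 0.0571, adjusted over 11 measures 0.471). Leaving out each library in turn gave differences from 0.72 to 1.32, with exact p from 0.0286 to 0.171 before adjustment. The largest difference and the smallest p came without ko replicate 3. The share of miR-145a-3p ran from 0.859% in ko replicate 3 to 2.87% in ko replicate 2, and the log2 ratio of its arms differed by -0.25 between genotypes (exact p = 0.686, adjusted 0.838), and by -0.63 without ko replicate 3 and -0.04 without ko replicate 2.

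For comparison, the endothelial miR-126a hairpin kept both arms. miR-126a-3p measured 2391 to 8499 CPM and miR-126a-5p 1785 to 3721 CPM over the 8 libraries, and the log2 ratio of its arms was 1.0 ± 0.77 (SD, n = 8). The difference of this ratio from those of the pair was not tested.

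The third comparison asked whether the members rise and fall together over mice. miR-143-3p and miR-143-5p did so, with Pearson r of 0.81 (exact permutation p = 0.00417, adjusted over 6 pairs 0.025) and Spearman rho of 0.86 (exact permutation p = 0.0107, adjusted 0.0643) over 8 libraries. r was 0.63 without the 2 libraries farthest from the median of miR-143-3p and 0.69 after the genotype means were removed. After centring of the libraries it was 0.57 with an exact permutation p of 0.146, so the relation depends on the scaling. The guides of the neighbouring hairpins gave a Pearson r of 0.05 (exact permutation p = 0.912, adjusted 0.934) and a Spearman rho of 0.24 (exact permutation p = 0.582, adjusted 0.699). Their Pearson r was -0.63 without the 2 farthest libraries and -0.03 after genotype means were removed. The other 4 pairs had r of 0.29, 0.32, -0.03 and 0.14, each with a permutation p adjusted to 0.934, and the first, miR-143-3p and miR-145a-3p, ran from 0.08 without het replicate 2 to 0.62 without het replicate 1.

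**Figure D3:**
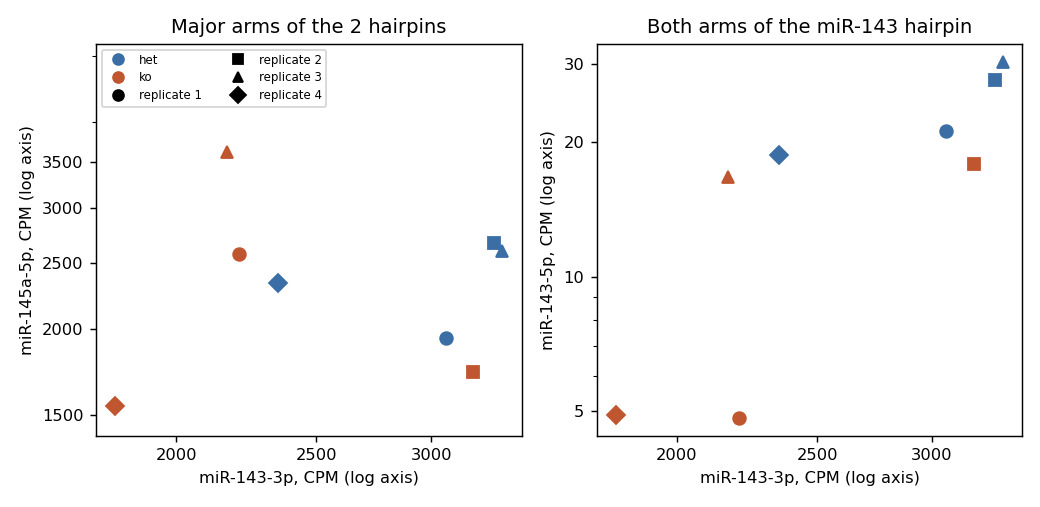
CPM of miR-145a-5p (left) and miR-143-5p (right) against miR-143-3p, all on log axes, 1 point per library, blue for het and orange for ko, with a marker for each replicate number. The left plot shows no common trend (r 0.05), with ko replicate 3 high in miR-145a-5p and low in miR-143-3p, and the right plot rises from ko replicate 4 to het replicate 3 (r 0.81).

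The miRNAs with the most similar profile were other genes. Over the 8 libraries the 5 miRNAs most correlated with miR-143-3p, of the 459 that remain of the 463 when the 4 members are set aside, were miR-376b-5p (r 0.97), miR-872-5p (0.96), miR-192-5p (0.94), miR-24-2-5p (0.92) and miR-411-5p (0.91), and miR-145a-5p would stand 224th among them. Those most like miR-145a-5p were miR-676-3p (0.88), miR-151-3p (0.87), miR-3102-3p (0.87), miR-127-3p (0.86) and miR-409-3p (0.86), and miR-143-3p would stand 263rd. All values of a library share its depth and scaling, and the highest of 459 correlations over 8 libraries is a description. The median correlation over the 459 was 0.02 with miR-143-3p and 0.18 with miR-145a-5p.

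None of these 10 miRNAs carries the main seed of the arm it follows. Mature sequences are shown for miR-376b-5p and miR-872-5p, which follow miR-143-3p, and for miR-676-3p and miR-3102-3p, which follow miR-145a-5p. Endothelial miR-126a-3p is added as the vessel comparator. All are written 5′ to 3′ from RefSeq (GRCm38.p6), with bases 2 to 8 in capitals. The seed used in this report is bases 2 to 7, and the seeds of the sequences shown also differ from each other.
mmu-miR-376b-5p (chr12:109723471-109723492, plus strand): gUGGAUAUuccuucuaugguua
mmu-miR-872-5p (chr4:94665167-94665187, plus strand): aAGGUUACuuguuaguucagg
mmu-miR-676-3p (chrX:100381151-100381171, plus strand): cCGUCCUGagguuguugagcu
mmu-miR-3102-3p (chr7:100882307-100882329, minus strand): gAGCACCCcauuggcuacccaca
mmu-miR-126a-3p (chr2:26591402-26591423, plus strand): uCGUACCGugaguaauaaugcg

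Single reads showed which forms of each guide RISC held. The most abundant read of miR-143-3p was 22 nt long, and its last base, a uridine, is not in the hairpin. It followed 21 nt of hairpin sequence, averaged 1084 CPM over the 8 libraries and made up 40.3% of the arm. The 21 nt form without the uridine made up 26.8% and the 20 nt form 13.6%. The 22 nt form whose last base matches the hairpin made up 5.81%, and the form with 2 added uridines 4.19%. Among reads whose hairpin part ended at 21 nt, 55.4 ± 3.11% carried 1 uridine, 5.62 ± 1.03% carried 2 and 37.2 ± 3.14% carried no tail (SD, n = 8). The share with 1 uridine lay between 51.7% and 61.0% in the 8 libraries.

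Such tails, bases after the hairpin match that the hairpin does not hold, were unequal between the arms. Uridine tails made up 47.1% of miR-143-3p, the 10th highest of 444 ranked miRNAs, whose median was 3.62%, and 1.38% of miR-145a-5p. An added base that equals the next hairpin base counts as hairpin sequence, so tails are not equally detectable in all miRNAs. After 21 nt of miR-143-3p the next hairpin base is A, so an added uridine is seen there. How far detection differs between the arms was not tested. Reads matching the hairpin made up 90.7% of miR-145a-5p, led by those of 23 nt (47.7%), 22 nt (16.9%) and 21 nt (10.8%). Such reads can include some with an added base that equals the hairpin. Over all libraries adenosine tails made up 14.0% of miR-143-5p and 13.2% of miR-145a-3p, against a median of 4.53%. On their few reads these shares spread widely, from 0% to 27.3% for miR-143-5p and from 0% to 54.5% for miR-145a-3p, the last on 11 reads. Uridine tails of miR-143-5p exceeded its adenosine tails in het replicate 2 (17.5% against 12.5%) and ko replicate 1 (21.1% against 13.2%). For miR-126a-3p uridine tails were 13.1% and adenosine tails 16.4%. The table cannot tell a base added to the RNA from a base that differs in the genome of these mixed-strain mice, and the hairpins used are those of the GRCm38 assembly.

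**Figure D4:**
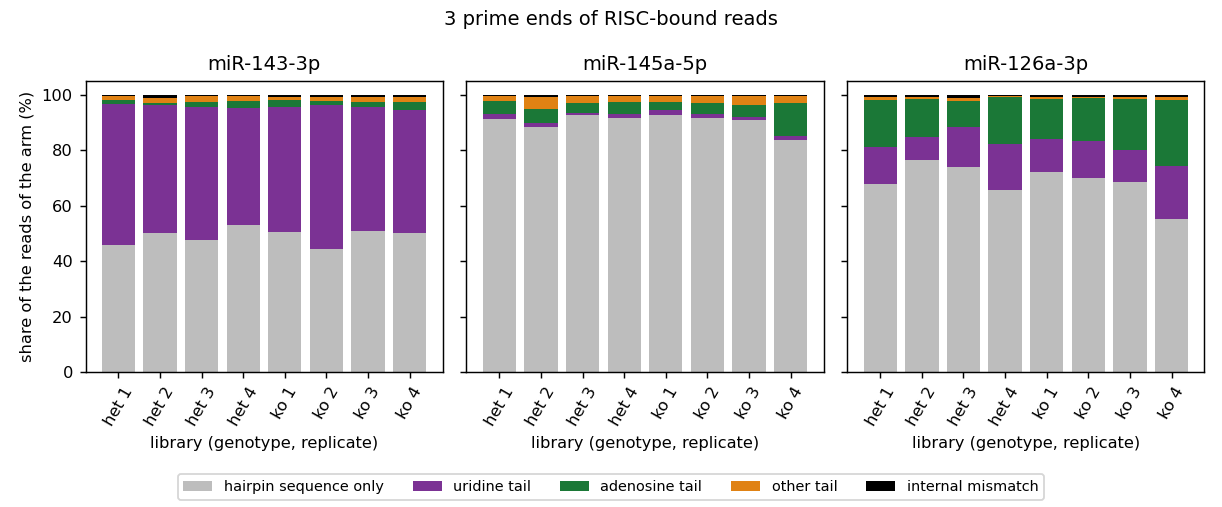
Share of the reads (%) of miR-143-3p, miR-145a-5p and endothelial miR-126a-3p in each library by 3 prime end: hairpin sequence only (grey), uridine tail (purple), adenosine tail (green), other tail (orange) and internal mismatch (black). Uridine tails take 42.3% to 51.9% of miR-143-3p in every library and 0.974% to 1.89% of miR-145a-5p. An added base that equals the next hairpin base is drawn as hairpin sequence.

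The share of tailed reads of miR-143-3p did not separate the genotypes. It was 53.7%, 48.6%, 51.9% and 46.4% in het replicates 1 to 4 and 48.9%, 54.9%, 48.4% and 49.1% in ko. The means were 50.2 ± 3.27% in het and 50.3 ± 3.09% in ko (exact permutation p = 0.943, adjusted over 4 arms 0.943). The tailed share of miR-145a-3p was 54.5%, 17.3%, 22.4% and 25.3% in het and 9.80%, 15.1%, 17.8% and 0% in ko, where het replicate 1 rests on 11 reads and ko replicate 4 on 37, where a count of 0 allows up to 8.11%. Its means were 29.9 ± 16.8% and 10.7 ± 7.85%, a difference of -19.2 percentage points (exact permutation p = 0.0571, adjusted 0.229). It was -11.0 points without het replicate 1 (exact permutation p = 0.114) and -23.4 without het replicate 2 (exact permutation p = 0.0286). Leaving out each library in turn gave exact p from 0.0286 to 0.143, before adjustment.

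Of the single reads whose mean reached 10 CPM, 24 belonged to the members, 11 to miR-143-3p, 12 to miR-145a-5p and 1 to miR-145a-3p, and 16 of the 24 were lower in ko, beside 1702 of all 3299 reads tested (51.6%) and 275 of 463 miRNAs. Reads of an arm share their source, and no test of this count was made. In the limma fit over 3299 reads, 16 reads or 0.485% passed and 0 of these 24 did, with 0 at an unadjusted p under 0.05 and adjusted p from 0.973 to 0.998. The main miR-143-3p read measured 1286, 1274, 1406 and 850.4 CPM in het and 869.6, 1421, 827.1 and 737.8 CPM in ko, a log2 difference of -0.34 with an SE of 0.30 (adjusted p = 0.973 by limma). Its values overlap between genotypes, and het replicate 4 lies among the ko mice. The main miR-145a-5p read measured 747.1, 989.7, 1197 and 1266 CPM in het and 1545, 870.3, 1872 and 587.9 CPM in ko, a log2 difference of 0.10 with an SE of 0.36 (adjusted p = 0.988 by limma). For this read ko mice hold both the highest and the lowest value.

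The 5′ start, which sets the seed, was nearly fixed in both guides and in miR-143-5p. From mean CPM, the most used start held a median of 96.5% over 444 ranked miRNAs. In that ranking miR-143-3p stood 115th and miR-145a-5p 131st. Endothelial miR-126a-3p, with 56.6%, was close to miR-145a-3p, with 56.4%. The most used start held 98.3 ± 0.612% of miR-143-3p, 98.0 ± 0.451% of miR-145a-5p and 100% of miR-143-5p (SD, n = 8), where 0 of 617 reads began elsewhere, which allows up to 0.486%. miR-145a-3p used 3 starts. The most used held 54.8 ± 14.2% of its reads, a start 1 nt upstream 20.03 ± 12.5%, and a start 2 nt upstream 25.2 ± 4.62%. In ko replicate 3 the start 1 nt upstream, with 43.8%, was ahead of the main one, with 30.1%. The share of the 2 upstream starts together was 27.3%, 34.6%, 34.4% and 54.7% in het replicates 1 to 4 and 43.4%, 40.6%, 69.9% and 56.8% in ko. It was lowest in het replicate 1, with 11 reads, and highest in ko replicate 3, with 73, and the genotypes overlap. The means were 37.7 ± 11.8% and 52.7 ± 13.5%, a difference of 14.9 percentage points (exact permutation p = 0.143, adjusted over 11 measures 0.471). It was 9.19 points without ko replicate 3, 20.6 without het replicate 4 and 25.6 without the 2 deepest libraries. Mean read length did not pass either, with differences from -0.0239 to 0.404 nt over the 4 arms (exact permutation p from 0.171 to 0.971).

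**Figure D5:**
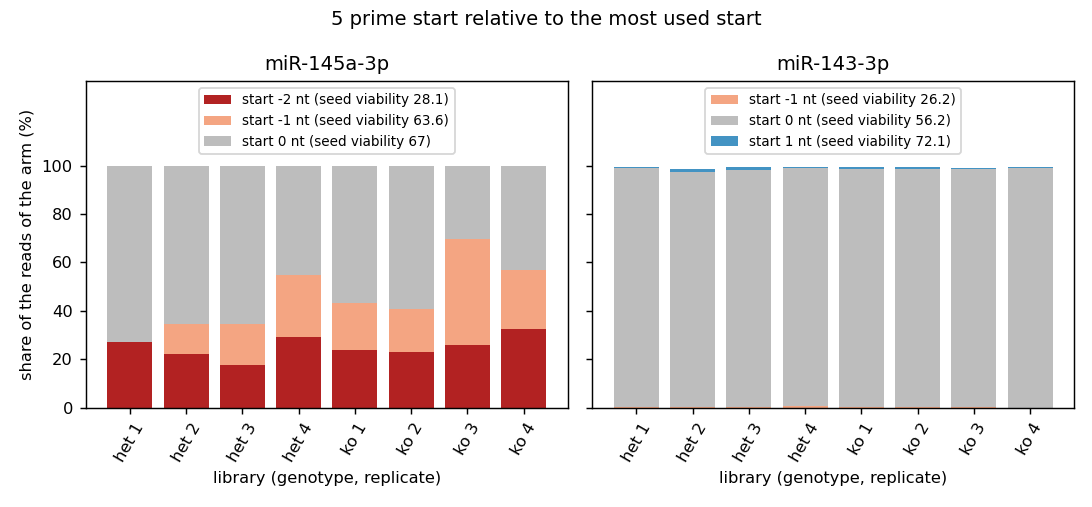
Share of the reads (%) of miR-145a-3p (left) and miR-143-3p (right) in each library by 5 prime start, relative to the start most used over all libraries, with the deposited viability score of the seed each start gives. The upstream starts take 27.3% to 69.9% of miR-145a-3p, and a start other than the main one at most 1.74% of miR-143-3p.

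The deposited seed viability score, the mean viability that a 6-base seed left in an earlier screen of 3 mouse cell lines, is lower for a more toxic seed. It was 56.2 for the main seed of miR-143-3p, 49.6 for miR-145a-5p, 64 for miR-143-5p and 67 for miR-145a-3p, and the mean over all reads in RISC was 56.4 ± 0.775 (SD, n = 8). The guides thus lay at and below the mean. For miR-145a-3p the start 1 nt upstream gave a seed of 63.6 and that 2 nt upstream a seed of 28.1, so that its reads averaged 56.9. The 4 arms supplied most of the reads with their seed, 98.9 ± 0.184% for miR-143-3p, 98.9 ± 0.211% for miR-145a-5p, 95.9 ± 8.04% for miR-143-5p and 94.2 ± 5.94% for miR-145a-3p.

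Related miRNAs that mark other cells of the vessel wall and brain were read beside the pair, from 7 lists of 28 names. They match 26 rows of the table, of which 23 were tested and 0 passed limma's adjusted threshold (1.30% of all miRNAs did), with 3 at an unadjusted p under 0.05, miR-214-3p, miR-199a/b-3p and erythroid miR-451a, all lower in ko, as were 6.91% of all miRNAs at that level. The endothelial miR-126a-3p averaged 5592 ± 2771 CPM in het against 5644 ± 2182 CPM in ko, and miR-126a-5p 2939 ± 784 against 2424 ± 791 CPM. The median log2 fold change of this list was -0.10, that of miR-221-3p and miR-222-3p, which act on growth of smooth muscle, 0.13, of the striated muscle list -0.24, of the blood list -0.25, of the neuronal list 0.33 and of the oligodendrocyte list -0.19, beside -0.09 over all miRNAs. Of the list miRNAs, miR-143-3p went most closely over the 8 libraries with endothelial miR-126a-5p (Pearson r 0.88), striated muscle miR-1a-3p (0.86) and blood miR-142a-3p (0.86), and least with miR-221-3p (-0.67). miR-145a-5p went most closely with miR-222-3p (0.84) and least with blood miR-142a-5p (-0.86). These are descriptions over libraries that share depth and scaling, and the part of such cells in the values of the pair was not tested. In bulk tissue fewer cells of a type and less RNA per cell cannot be told apart.

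The fibroblast and mesenchymal list had the lowest median, -1.60, over the 3 tested of its 5 rows. miR-214-3p, known from mesenchymal and fibroblast cells, measured 226, 51.6, 32.2 and 45.8 CPM in het replicates 1 to 4 and 30.4, 15.1, 11.6 and 10.8 CPM in ko. All ko values lie below all het values, and het replicate 1 is far above the rest. The log2 difference, ko minus het, was -1.99 (adjusted p = 0.175 by limma, SE 0.56), while DESeq2 on the recovered reads called it (adjusted p = 0.0117). miR-199a/b-3p averaged 158 ± 126 CPM in the het mice and 64.9 ± 18.6 CPM in the ko mice, with a log2 fold change of -1.03 (limma adjusted p = 0.593). miR-199a-5p measured 153, 40.6, 5.44 and 66.1 CPM in het and 10.6, 14.9, 6.45 and 22.5 CPM in ko, with a log2 fold change of -1.60 (limma adjusted p = 0.622). Its genotypes overlap, since het replicate 3 lies below all 4 ko mice. Without het replicate 1 the het means were 43.2 ± 9.94, 95.2 ± 21.3 and 37.4 ± 30.4 CPM (SD, n = 3) for miR-214-3p, miR-199a/b-3p and miR-199a-5p, and the limma log2 fold changes -1.39, -0.56 and -0.97 (adjusted p = 0.302, 0.985 and 0.985). miR-214-5p and miR-199b-5p were below the filter. het replicate 1 is the shallowest library and holds the highest value of all 3, while its miR-143-3p, at 3069.6 CPM, is below that of het replicates 2 and 3.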

How the data were processed

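The members and lists were chosen with earlier results of these data known. RISC-bound small RNAs of 8 brains (4 het, 4 ko) were analysed, with groups and replicate numbers taken from the titles. The authors made the table with their SPOROS pipeline, and the deposited values are CPM, that is, scaled to 1000000 reads per library. Rare sequences had been removed, and every sequence kept has at least 8 reads over the libraries. The submitters' processing notes name Trim Galore, and the build and aligner version behind this table are not given in the sources used here. The deposited viability score of a seed is the authors' mean over 3 cell lines, not measured in these mice. A column of totals was not used, and the 2 names joined in the table for identical sequences were kept joined.

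All CPM values came out as whole reads (100% within 0.0006 CPM or 1e-06 of the value), which gave 509839 to 19878054 reads per library in the table and the Wilson intervals. Reads had no molecular identifiers. CPM was summed per miRNA name, and miRNAs or reads whose mean reached 10 CPM were tested on log2(CPM + 1) by limma 3.58.1 (trend and robust) in R 4.3.3, both genotypes in one fit with Benjamini-Hochberg adjustment and a threshold of 0.05. Adding 1 CPM understates the change of low miRNAs. edgeR 4.0.16 (quasi-likelihood, TMM) and DESeq2 1.42.0 on the recovered reads were alternatives. Single measures had exact two-sided tests over 70 arrangements (smallest p 0.0286). Reads were matched to GENCODE hairpins from at least 15 nt, and up to 3 bases beyond the match counted as a tail. Tail measures were added after the data were seen. The limma step was tested on simulated data of 3299 reads for ko against het, where it recovered 78% of 200 reads changed by a log2 fold change of 2, with 5.45% false calls. All simulated reads had the same dispersion, and no member changed as much, so the 78% does not measure the power for the members. The labels name a different mouse for each library, so p-values measure the spread between mice. Named miRNAs are the members, the lists, the 5 most alike of each guide and the leading reads. Python 3.11.15, numpy 2.4.6, scipy 1.17.1, pandas 2.3.3 and matplotlib 3.10.9 did the rest.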

Additional observations from a re-analysis of the deposited data

Results flagged for a closer look

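A sample far from the other libraries of its genotype was found in 3 of 38 groups of 4 libraries, where about 1.9 would be set apart by chance at 1 in 20. In ko replicate 4 reads of miR-143-3p with a start other than the most used one made up 0.0540%, and the nearest ko library had 0.971%. In ko replicate 2, the deepest library, the tailed share of miR-143-3p was 54.9%, and the nearest ko library had 49.1%. In ko replicate 4 the tailed share of miR-143-5p was 0 of 5 reads, which allows up to 60%, and the nearest ko library had 28.7%. Reads of the hairpins that carry no mature name were outside the comparisons, and 127 such sequences summed to 70.2 CPM on average, from 50.2 CPM in het replicate 1 to 92.0 CPM in ko replicate 3, above the 5.79 CPM that 3 reads give in the shallowest library.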

How the results depend on the processing

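Of 366 alternative values of 30 results, 327 kept their direction and their side of the threshold, 31 changed sign, 7 came to pass an unadjusted or adjusted threshold and 1 no longer passed; the cause was not tested. No setting called a member or a single read of a member, and the log2 fold change kept its sign under every alternative for miR-143-3p (-0.59 to -0.16, limma, edgeR or DESeq2 adjusted p 0.387 to 0.992) and miR-143-5p (-1.56 to -0.76, adjusted p 0.226 to 0.988). For miR-145a-5p it was 0.14 with centred libraries, 0.10 with edgeR and 0.11 with DESeq2, and for miR-145a-3p -0.17 without the 2 deepest libraries. That last setting also gave 0.17 for the difference of the miR-145a arm ratio, -0.11 points for the other starts of miR-145a-5p, 0.0196 nt for the mean length of miR-145a-3p, and -1.42 and -1.47 points for the tailed share of miR-143-3p and miR-143-5p. The most abundant reads gave a miR-143-3p over miR-145a-5p ratio of -0.021 (log2), and could not be used for the miR-143 arms, since the main miR-143-5p read is at 0 in het replicate 1 and ko replicate 4. A pseudocount of 10 CPM gave r of 0.024 for miR-143-5p and miR-145a-3p, and centring gave 0.57 for the arms of miR-143.

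Leaving out each library gave log2 fold changes of -0.54 to -0.27 (miR-143-3p), -1.56 to -0.995 (miR-143-5p), -0.31 to 0.10 (miR-145a-5p) and -0.11 to 0.46 (miR-145a-3p). The mean log2 ratio of the guides ran from 0.090 to 0.32, and the genotype difference of the miR-143 arm ratio from 0.72 to 1.32, of the miR-145a arm ratio from -0.63 to -0.04, of other starts of miR-145a-3p from 9.19 to 20.6 points and of miR-145a-5p from -0.050 to 0.40 points, and of mean length from 0.244 to 0.586 nt for miR-143-5p (exact p 0.0286 without het replicate 1) and from -0.0580 to 0.0576 nt for miR-145a-3p. The exact p for the length of miR-143-5p ran from 0.0286 to 0.314. Tailed shares differed by -1.37 to 1.35 points for miR-143-3p and 0.29 to 13.9 for miR-143-5p. They differed by -0.65 to 2.36 points for miR-145a-5p and -23.4 to -11.0 for miR-145a-3p. r ran from -0.51 to 0.38 for the guides, 0.08 to 0.62 for miR-143-3p and miR-145a-3p, -0.31 to 0.25 for miR-143-5p and miR-145a-3p, -0.073 to 0.55 for miR-143-5p and miR-145a-5p, and -0.022 to 0.43 for the arms of miR-145a.

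Same-numbered libraries correlated at 0.04, 0.29, -0.18 and 0.25 in their deviations and come from different mice, so the numbers were not taken as pairs. With a replicate block 0 members and 1 list miRNA passed, miR-214-3p (limma adjusted p = 0.0184), and DESeq2 also called 1, miR-214-3p (adjusted p = 0.0117), where its adjusted p ran from 0.0117 to 0.416 over 16 alternatives. Leaving out each library, which was added for the lists after the data were seen, called 0 to 1 list miRNAs, the 1 being miR-199a-5p without het replicate 3 (limma adjusted p = 0.0333). Depth limits the passengers most, since het replicate 1 and ko replicate 4 hold 5 to 37 of their reads.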
